A study of Mus musculus with 6 samples.

Results

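Ribosome biogenesis and nucleolar genes encode the machinery that transcribes ribosomal RNA, modifies and cuts it, and assembles it into ribosomal subunits. The set described here holds 40 listed genes, each read from the probe set annotated to that symbol alone with the highest mean over the arrays. Of these, 39 had such a probe set among 22180 named genes, and all 39 passed the filter on dim genes that left 15526 genes to test. Fbl, the methyltransferase of box C/D particles, has no value because its probe set is annotated to more than 1 gene. Levels of the 39 genes ran from 6.37 to 12.33 on the log2 scale, where the median of an array over all probe sets lay between 4.72 and 4.84.

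Cells came from leukemias of 2 mouse genotypes, with 3 samples and 3 arrays for each. Both carried Mx1-Cre, an interferon-inducible recombinase that is also active outside blood cells, and Cbfb+/56M, a knock-in that makes the Cbfb-MYH11 fusion of inv(16) acute myeloid leukemia once Cre acts. One genotype was also Chd7f/f, with both alleles of the chromatin remodeller gene Chd7 floxed, and the other is called the control. All mice received ENU, a mutagen, and pIpC, which induces Mx1-Cre, and c-Kit+ cells were sorted from the spleen at the end stage. Ages were not among the labels. The design text calls the samples of a genotype independent but does not tie each to its own mouse, so the spread behind each p-value is that between samples, which may be technical. Values are RMA levels (background-corrected, quantile-equalised and summarised per probe set), and the number of arrays limits their precision.

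RNA polymerase I transcribes ribosomal DNA in the nucleolus with the factors UBTF, RRN3 and the SL1 complex. Small nucleolar ribonucleoproteins of the box C/D and box H/ACA classes guide 2′-O-methylation and pseudouridylation of the transcript, and large complexes then process it into the RNAs of the small and large subunits. Output of this pathway is known to rise with growth and division, and MYC is a known activator of many of its genes.

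Kit, which encodes the sorted surface receptor, was at 11.72, 12.12 and 11.68 on the control arrays and at 12.48, 11.69 and 11.90 on the Chd7f/f arrays. Chd7 was at 6.17, 7.54 and 5.32 in the control and at 5.48, 6.50 and 5.91 in Chd7f/f leukemias, so the groups overlapped. The probe set does not check the deletion, because it is not known here where its probes lie. Mean levels of the B cell markers lay between 4.25 and 4.89 and those of the T cell markers between 4.39 and 4.66 over the arrays, near the array medians. The B cell gene Cd79a stood apart on control replicate 2, at 7.18, against 4.97 to 5.26 elsewhere. In bulk samples, fewer cells of a type and less RNA per cell cannot be told apart.

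The 39 genes were not evenly low in a genotype: most were lowest on the same array. Chd7f/f replicate 1 was the lowest of the 6 arrays for 36 of them, against 27.7% of all tested genes. For 22 of the 39 it lay more than 0.5 log2 below each other array, against 5.8% of all tested genes. The distance of this array from the mean of the other 5 had a median of -0.88 over the members, or 54.4% of their level on the linear scale, and of -0.04 over all tested genes. This array was singled out with earlier results known, so its distances are a description, without replicates and without a test. Chd7f/f replicate 2 was the highest array for 21 of the 39 genes, against 17.6% of all tested genes, and control replicate 1 for 11 of the 39, near the 24.4% of all tested genes that were highest there.

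**Figure D1:**
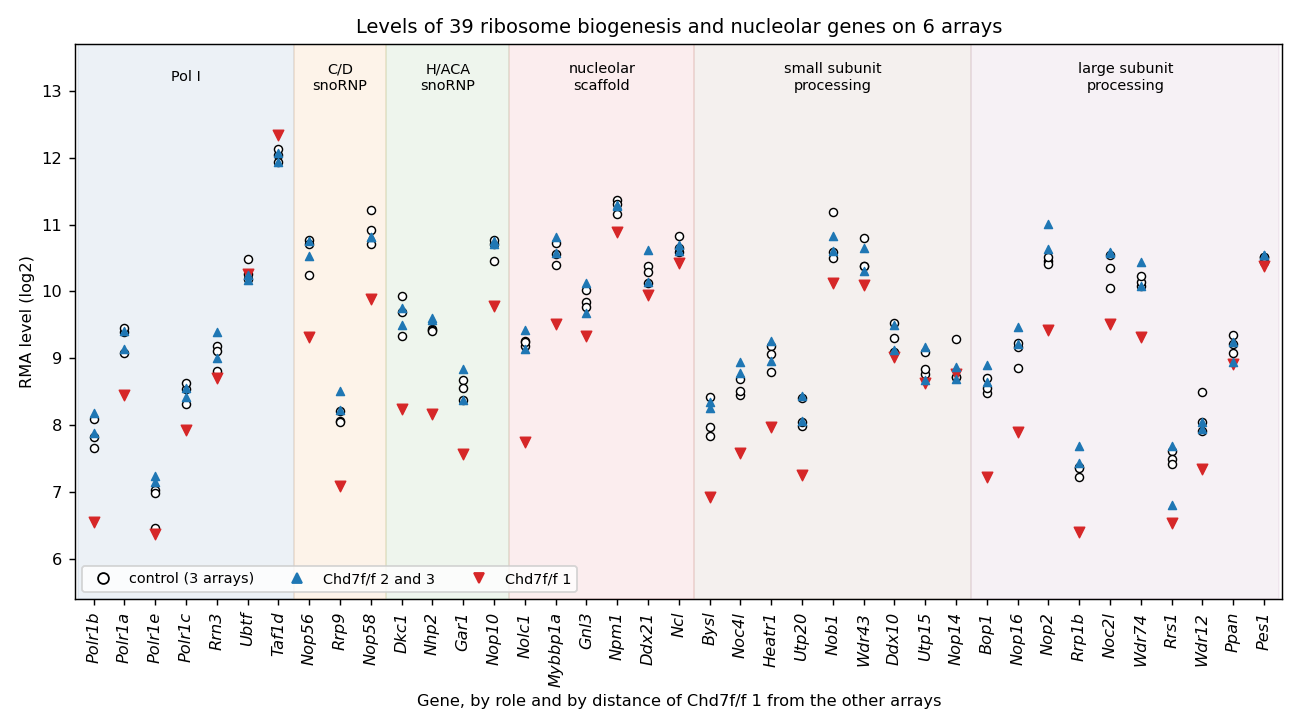
Levels on the log2 scale (vertical axis) of the 39 genes (horizontal axis, grouped by role) on the 3 control arrays (open circles), Chd7f/f 2 and 3 (blue triangles) and Chd7f/f 1 (red triangles pointing down). Chd7f/f 1 is the lowest point for 36 genes, and for Nop14, Ubtf and Taf1d it is not.

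Among the RNA polymerase I genes the distances were the most uneven. Polr1b, the second-largest subunit of the polymerase, was at 8.10, 7.66 and 7.82 in the control and at 6.55, 8.18 and 7.88 in Chd7f/f leukemias. Its level on Chd7f/f replicate 1 was 38.4% of that on the other 5 arrays, while the other Chd7f/f arrays were within or just above the control range. Polr1a, the largest subunit, was at 9.39, 9.46 and 9.08 in the control and at 8.45, 9.40 and 9.13 in Chd7f/f. Polr1c, a subunit shared with RNA polymerase III, had a distance of -0.57 on Chd7f/f replicate 1, and Polr1e, which encodes the PAF53 subunit, one of -0.61. Polr1e was also low on control replicate 1, at 6.46 against 6.37 on Chd7f/f replicate 1, whereas the remaining 4 arrays gave 6.98 to 7.25.

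The initiation factors varied less from array to array. Ubtf, which binds ribosomal DNA and keeps it open, was at 10.48, 10.25 and 10.19 in the control and at 10.26, 10.24 and 10.17 in Chd7f/f, so that Chd7f/f replicate 1 held the second-highest value. Rrn3, which brings the polymerase to the promoter, was at 8.71 on Chd7f/f replicate 1 and between 8.80 and 9.40 elsewhere. Taf1d, an SL1 subunit, was at 12.33 on Chd7f/f replicate 1 and between 11.93 and 12.13 elsewhere, the reverse of the other members. That value does not stand for its messenger RNA alone with any certainty: 11 probe sets are annotated to Taf1d, and RefSeq places 6 snoRNA genes inside it. Over these probe sets the distance of Chd7f/f replicate 1 ran from -2.37 to 0.61.

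Genes of the small nucleolar ribonucleoproteins were the role groups with the largest median distance, -1.12 for box C/D and -1.15 for box H/ACA. Nop56, a core protein of box C/D particles, was at 10.77, 10.25 and 10.70 in the control and at 9.32, 10.75 and 10.54 in Chd7f/f. Its paralog Nop58 was at 11.21, 10.70 and 10.92 in the control and at 9.88, 10.81 and 10.82 in Chd7f/f. In these probe sets both were low on 1 array only, and the other Chd7f/f arrays lay inside the control range. The other 2 probe sets of Nop56 did not show the low value, with distances of -0.10 and -0.080 on Chd7f/f replicate 1 against -1.28. Which part of the gene each reads is not known here, and with the mean of the 3 the genotype difference of Nop56 was -0.094 in place of -0.37. Rrp9, which binds the U3 snoRNA, was at 7.10 on Chd7f/f replicate 1 and between 8.05 and 8.51 elsewhere.

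Transcripts of all 4 box H/ACA proteins were lowest on Chd7f/f replicate 1, but they were not all highest on the same array. Dkc1, the pseudouridine synthase, also part of telomerase, was at 9.94, 9.33 and 9.69 in the control and at 8.24, 9.76 and 9.49 in Chd7f/f. Nhp2 was at 9.44, 9.43 and 9.41 in the control, the narrowest control range of this class, and at 8.17, 9.61 and 9.57 in Chd7f/f. On Chd7f/f replicate 1 Gar1 was at 50.3% and Nop10 at 53.8% of their level on the other 5 arrays, against 37.9% for Dkc1 and 40.1% for Nhp2. The 4 proteins form 1 complex, and their transcripts were all more than 0.5 log2 below each other array there.

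The abundant nucleolar proteins divided into genes that were much lower on this array and genes that were little lower. Nolc1, a chaperone of snoRNPs also called Nopp140, had the largest distance of all members: it was at 9.26, 9.18 and 9.24 in the control and at 7.75, 9.43 and 9.14 in Chd7f/f. Mybbp1a, a regulator of ribosomal RNA synthesis, was at 9.51 on Chd7f/f replicate 1 and between 10.40 and 10.82 elsewhere. By contrast Ncl, the major nucleolar RNA-binding protein nucleolin, was at 10.82, 10.58 and 10.65 in the control and at 10.42, 10.69 and 10.61 in Chd7f/f. Npm1, the histone chaperone nucleophosmin, was at 11.37, 11.31 and 11.16 in the control and at 10.89, 11.28 and 11.29 in Chd7f/f. Ncl and Npm1 were lowest on the same array, but at 83.9% and 76.1% of the other 5, and a second probe set of Npm1 had a distance of -0.27. The GTPase gene Gnl3 (nucleostemin) had a distance of -0.56 and the RNA helicase gene Ddx21 one of -0.37, with -0.32 for its second probe set.

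Of the 9 genes of small subunit processing 8 were lowest on Chd7f/f replicate 1. Bysl, a late assembly factor, was at 7.84, 7.98 and 8.43 in the control and at 6.93, 8.35 and 8.25 in Chd7f/f. Noc4l, a nucleolar complex protein, had a distance of -1.09 on that array, the processome gene Heatr1 one of -1.07 and Utp20, a further processome gene, one of -0.94. Nob1, the endonuclease that makes the last cut of 18S ribosomal RNA, was at 10.12 there and between 10.50 and 11.18 elsewhere, with the highest value on control replicate 1. The distances were -0.40 for Wdr43, -0.28 for the helicase gene Ddx10 and -0.27 for Utp15, the smallest of those lowest there in this group. Nop14 was high on control replicate 1, at 9.29, and lay between 8.70 and 8.86 on the remaining 5 arrays, Chd7f/f replicate 1 included.

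All 10 genes of large subunit processing were lowest on Chd7f/f replicate 1, 7 of them by more than 0.5. BOP1, PES1 and WDR12 form the PeBoW complex of ribosomal RNA processing, and their genes differed. Bop1 was at 8.48, 8.70 and 8.55 in the control and at 7.22, 8.91 and 8.65 in Chd7f/f. Wdr12 was at 7.34 on Chd7f/f replicate 1 and between 7.91 and 8.50 elsewhere, and Pes1 was at 10.38 there and between 10.43 and 10.55 elsewhere. The 3 partners were thus at 36.9%, 59.7% and 91.5% of their level on the other 5 arrays.

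Nop16 was at 8.86, 9.17 and 9.22 in the control and at 7.90, 9.47 and 9.22 in Chd7f/f. Nop2, a methyltransferase of large subunit RNA, was at 9.42 on Chd7f/f replicate 1 and between 10.42 and 11.00 elsewhere. The distance was -1.02 for Rrp1b, -0.91 for Noc2l and -0.88 for Wdr74. Rrs1, which acts with the 5S particle, was low on 2 arrays, both Chd7f/f, with levels of 7.61, 7.50 and 7.41 in the control and of 6.54, 7.69 and 6.80 in Chd7f/f. A second probe set of Rrs1 gave the same order of the Chd7f/f arrays, at 6.13, 6.84 and 6.37. Ppan was at 8.91 on Chd7f/f replicate 1 and 8.94 on Chd7f/f replicate 3, against 9.09 to 9.35 elsewhere. A second probe set of Ppan had Chd7f/f replicate 3 inside the control range, at 8.57, and Chd7f/f replicate 1 lowest, at 8.11.

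Promoters are shown for the 4 members with the largest spread over arrays that the RefSeq promoter table (GRCm38.p6) holds, since these genes were low together on the same array. It held 36 of the 39 members, with 45 promoters. Each sequence is the 250 bases before the annotated start, in the direction of transcription, and capitals mark matches to CCGGAAG (an ETS factor core) or to ACTACA followed, after 2 further bases, by TCCC (called the ACTACA element here).
Nolc1, chr19:46075597-46075846, plus strand: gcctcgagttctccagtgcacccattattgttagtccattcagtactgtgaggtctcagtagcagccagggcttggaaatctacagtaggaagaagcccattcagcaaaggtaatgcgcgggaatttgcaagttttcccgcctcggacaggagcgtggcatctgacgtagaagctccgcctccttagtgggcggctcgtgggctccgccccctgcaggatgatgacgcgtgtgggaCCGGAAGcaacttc
Dkc1, chrX:75095604-75095853, plus strand: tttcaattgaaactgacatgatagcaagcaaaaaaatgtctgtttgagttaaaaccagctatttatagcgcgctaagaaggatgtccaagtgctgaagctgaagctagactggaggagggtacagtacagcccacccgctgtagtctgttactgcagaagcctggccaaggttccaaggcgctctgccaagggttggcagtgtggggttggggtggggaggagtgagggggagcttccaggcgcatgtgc
Polr1b, chr2:129100746-129100995, plus strand: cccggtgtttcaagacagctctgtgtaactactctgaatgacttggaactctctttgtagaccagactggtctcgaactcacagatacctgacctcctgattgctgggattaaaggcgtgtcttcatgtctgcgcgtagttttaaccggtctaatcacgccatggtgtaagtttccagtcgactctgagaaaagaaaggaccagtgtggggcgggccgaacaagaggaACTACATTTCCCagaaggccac
Nop16, chr13:54590075-54590324, minus strand: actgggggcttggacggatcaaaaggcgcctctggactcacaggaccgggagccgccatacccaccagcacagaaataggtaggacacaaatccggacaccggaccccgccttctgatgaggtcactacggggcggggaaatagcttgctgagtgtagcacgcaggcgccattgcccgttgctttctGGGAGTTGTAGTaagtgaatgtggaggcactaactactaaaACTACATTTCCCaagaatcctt
The Polr1b and Nop16 promoters hold ACTACATTTCCC at the same place, starting at -22 from the start site, and Nop16 has a further match on the opposite strand at -63. The Nolc1 promoter holds CCGGAAG at -14, and Dkc1 holds neither motif in these bases.

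Motifs were searched on both strands of 300 bases, 250 before and 50 after the start, and matches of different motifs overlapped in 0 of the 45 member promoters. The E-box CACGTG, which MYC and MAX bind among other factors, was in 6 of the 45 member promoters (13.3%) and in 7.15% of all 32851 promoters in the table. CCGGAAG was in 28.9% of member promoters against 8.86% of all. CCAAT was in 24.4% against 37.4%. The ACTACA element, searched after the sequences above were read, was in 4 of 45 (8.89%) against 1.81%. Polr1b and Nop16, in whose sequences it was seen, are among these 4. Its shares, also those by gene below, therefore include the genes it was chosen from and are no test of it. The NRF1 palindrome (GCGCA, then TGCGC) and the palindrome of TCTCG followed by CGAGA were in 0 member promoters, against 0.971% and 0.466% of all. Counted by gene, 10.8% of the tested genes listed there had CACGTG, 16.6% CCGGAAG and 3.86% the ACTACA element in any promoter, against 16.7%, 33.3% and 11.1% of the 36 members. The windows below show the upstream CACGTG matches and the ACTACA elements of Nop10 and Nop14, with the motif in capitals.
Nop2, chr6:125131813-125131838, plus strand: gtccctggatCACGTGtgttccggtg
Rrn3, chr16:13780641-13780666, plus strand: acgctctgctCACGTGggccgcgtcc
Rrn3, chr16:13780474-13780499, plus strand: gcgccaaggtCACGTGcacacgcctc
Nop10, chr2:112261884-112261911, plus strand: agaaatggACTACATTTCCCaggatgcc
Nop14, chr5:34660230-34660257, minus strand: ggcctcctGGGAGTTGTAGTctttaatc
Nop14, chr5:34660283-34660310, minus strand: ctcgggacACTACAGATCCCataaggcc
The 4 members with the ACTACA element were Polr1b, Nop16, Nop10 and Nop14, whose distances on Chd7f/f replicate 1 were -1.38, -1.29, -0.89 and -0.094, so that Nop14, with 2 matches, was not low there. The members with CACGTG were Mybbp1a, Nop2, Pes1, Rrn3, Utp20 and Wdr43, whose distances on Chd7f/f replicate 1 ran from -0.13 for Pes1 to -1.18 for Nop2. Their median distance was -0.67, and it was -0.89 for the 30 members without the motif in these windows. The medians with and without the motif were -0.89 and -0.87 for CCGGAAG and -0.94 and -0.74 for CCAAT. For the ACTACA element they were -1.09 and -0.86. A relation of any motif to these distances was not tested.

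The spread in growth between the samples was read from 28 DNA replication and 28 mitosis genes, none of them a member. The mean of these 56 genes relative to their averages over arrays was 0.49, -0.12 and 0.36 on the control arrays and -1.54, 0.48 and 0.32 on the Chd7f/f arrays. The same mean over the 39 members was 0.19, 0.01 and 0.10 in the control and -0.65, 0.29 and 0.05 in Chd7f/f. Chd7f/f replicate 1 was thus the lowest by both measures, and on the other 5 arrays both had control replicate 2 last and Chd7f/f replicate 2 and control replicate 1 first. A correlation is not given, because 1 array stands apart and the other 5 are too few. Mki67, the proliferation marker Ki-67, was at 10.22 on Chd7f/f replicate 1 and between 11.30 and 11.86 elsewhere. The helicase gene Mcm2 was at 8.85 there and between 10.19 and 10.95 elsewhere, and the polymerase clamp gene Pcna at 10.54 and between 10.91 and 11.38.

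The distance of that array was larger for the growth genes than for the members: its median was -1.92 over the 56 growth genes, -0.88 over the members and -0.10 over 56 tested genes of cytosolic ribosomal proteins, which are the products the pathway assembles with RNA. The test of these differences between lists was not made, since 1 array gives no replicates. By role, the medians were -0.57 for RNA polymerase I, -0.48 for the nucleolar scaffold, -0.62 for small subunit and -0.89 for large subunit processing. Without Chd7f/f replicate 1 the spread of a member was small: the median SD over the other 5 arrays was 0.20, against 0.19 for all tested genes, while over all 6 arrays it was 0.38 against 0.21.

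**Figure D2:**
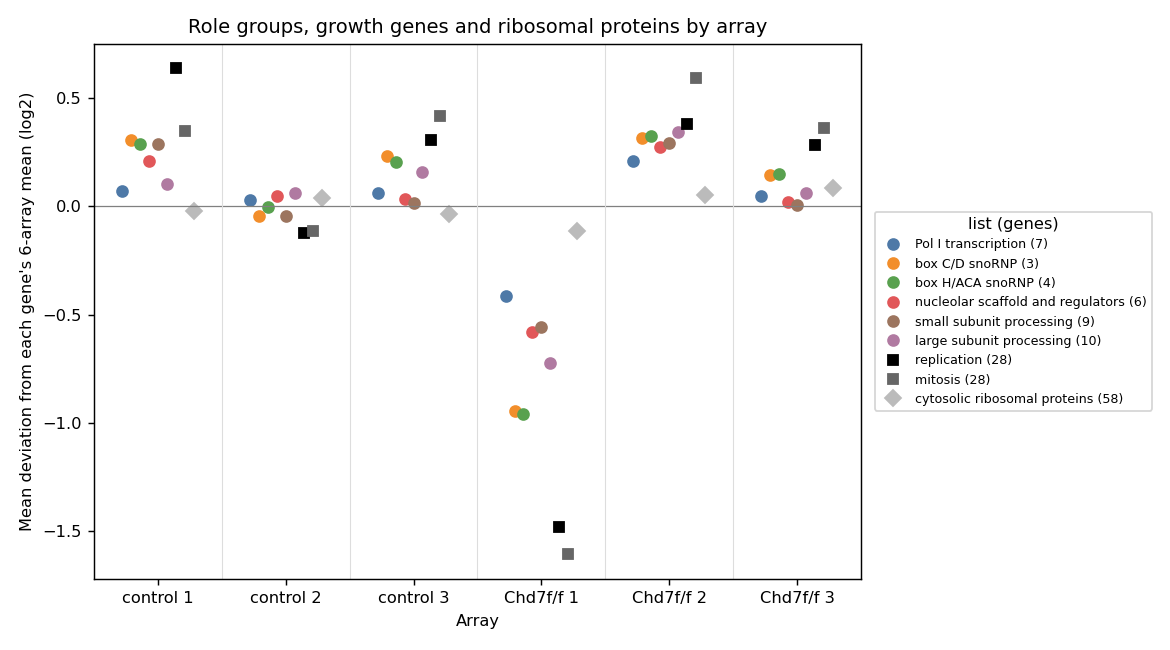
Mean deviation of each list from its genes' 6-array means (vertical axis, log2) on each array (horizontal axis), for the 6 role groups (circles), replication and mitosis genes (squares) and ribosomal protein genes (diamonds). On Chd7f/f 1 the mitosis genes are at -1.61, the snoRNP groups at -0.95 and -0.96, RNA polymerase I genes at -0.41 and ribosomal protein genes at -0.12.

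Other transcripts were set apart on the same array. Myc was at 10.20, 10.55 and 10.45 in the control and at 9.41, 10.90 and 10.31 in Chd7f/f, lowest and highest on the same arrays as most members. Its partner gene Max was at 9.76 on Chd7f/f replicate 1 and between 9.05 and 9.47 elsewhere, and Mycn was between 4.12 and 4.57 on all 6 arrays, near the array medians. Of 12 erythroid markers 6 had a probe set of their own. All 6 were lowest on Chd7f/f replicate 1, against 27.7% of all tested genes, but only 2 by more than 0.5. Their mean level was 8.76 to 10.49 over the control arrays and 8.20 to 9.46 over the Chd7f/f arrays. The list stood further from its 6-array mean on control replicate 1, at 1.30, than on Chd7f/f replicate 1, at -0.99. Epb42, a red cell membrane protein gene, was at 5.19 on Chd7f/f replicate 1 and between 6.42 and 8.94 elsewhere. The mean of 8 progenitor markers was highest on Chd7f/f replicate 1, at 8.68, against 7.56 to 8.23 elsewhere, with Cd34 at 9.47 against 5.61 to 7.64. Kit, Gata2 and Mpo were also highest there, while Myb, Elane, Cebpa and Flt3 were each higher on another array. The part of these cell markers, and of growth, in the low values of the members was not tested.

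Other ribosome biogenesis genes were read from a list of 117, of which 109 had a probe set of their own. On Chd7f/f replicate 1 their median distance was -0.45, with 77 lowest there and 24 more than 0.5 below each other array. The shares over all tested genes were 27.7% and 5.8%. Between genotypes 76 were lower and 33 higher in Chd7f/f by their means, with a median of -0.09. Of all tested genes 56.3% were lower. In limma 0 of the 109 passed an unadjusted p of 0.05, against 1.84% of all tested genes. The smallest p belonged to Imp4, a U3 particle protein, at 9.70, 9.77 and 9.60 in the control and 9.09, 9.34 and 9.57 in Chd7f/f. It was the 1 gene of the 109 with all Chd7f/f values below the control values, against 4.37% of all tested genes. Its difference was -0.35 (SE 0.15; limma, adjusted p = 0.9998). The RNA acetyltransferase gene Nat10 differed by -0.46, the GTPase gene Gtpbp4 by -0.30 and the kinase gene Riok2 by 0.42, none past the threshold.

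Between genotypes, Chd7f/f minus control, no member passed limma's test. The smallest adjusted p was 0.9998, 0 of 39 had an unadjusted p under 0.05, and 1.84% of all tested genes did. Among all 15526 genes 0 passed an adjusted p of 0.05 (0% of those tested) and 286 an unadjusted one, or 477 without control replicate 2. By their means 35 of the 39 were lower in Chd7f/f, against 56.3% of all tested genes, with a median difference of -0.19 against -0.03 over all tested genes. Without Chd7f/f replicate 2 the count was 38 and the median -0.41, against a median of -0.03 over all tested genes. The share of all tested genes that were lower is not given for this fit. The standard errors, with a median of 0.29, were larger than most of these differences. For 0 of the 39 were the 3 Chd7f/f values all below the 3 control values, against 4.37% of all tested genes, and for 0 were they all above, against 2.45%.

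Most of the lower means came from Chd7f/f replicate 1. Without it, 13 of 39 members were lower in Chd7f/f, against 50.3% of all tested genes, and the median difference was 0.068 against -0.0016 over all. Then 8 members had both remaining Chd7f/f values above the 3 control values, against 7.88% of all tested genes: Polr1e, Rrp9, Nhp2, Noc4l, Pes1, Nop2, Noc2l and Rrp1b. With both remaining Chd7f/f values below the control there were 0, against 9.03%. With array weights, which gave this array the lowest weight of the 6, 27 members were lower and the median was -0.04. Over all tested genes the weighted median was -0.0065, and the share lower is not given for this fit.

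The largest differences over all 6 arrays were those of Rrs1, Dkc1, Nolc1 and Nop58. Rrs1 was 7.01 ± 0.60 in Chd7f/f and 7.51 ± 0.10 in the control (SD, n = 3 each), a difference of -0.49 (SE 0.30; limma, adjusted p = 0.9998). The difference was -0.26 if Chd7f/f replicate 1 was left out and -0.83 if Chd7f/f replicate 2 was. In the latter fit Rrs1 was the 1 member past an unadjusted p of 0.05 (limma), as were 295 of all 15526 tested genes. Dkc1 was 9.16 ± 0.81 and 9.65 ± 0.30 (SD, n = 3 each), a difference of -0.49 (SE 0.41) that was -0.029 without Chd7f/f replicate 1. Nolc1 was 8.77 ± 0.89 and 9.23 ± 0.044 (SD, n = 3 each), a difference of -0.45 (SE 0.43) that was 0.055 without that array. Nop58 was 10.50 ± 0.54 and 10.95 ± 0.25 (SD, n = 3 each), a difference of -0.44 (SE 0.29) that was -0.13 without it. Each of these 4 differences was smaller than the SD between the 3 Chd7f/f samples.

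On the other side, Polr1e was 0.097 higher in Chd7f/f (SE 0.28), and Taf1d 0.08 higher (SE 0.14). Rrn3 and Pes1 differed by 0.0006 and 0.0022, with SEs of 0.21 and 0.11. The SE of Pes1 was the smallest of the members, and that of Bop1, at 0.43, the largest. Growth genes differed by -0.49 in their mean, from 0.25 ± 0.32 in the control to -0.25 ± 1.13 in Chd7f/f (SD, n = 3 each; exact two-sided permutation p = 0.6, where 3 against 3 arrays cannot go below 0.1).

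**Figure D3:**
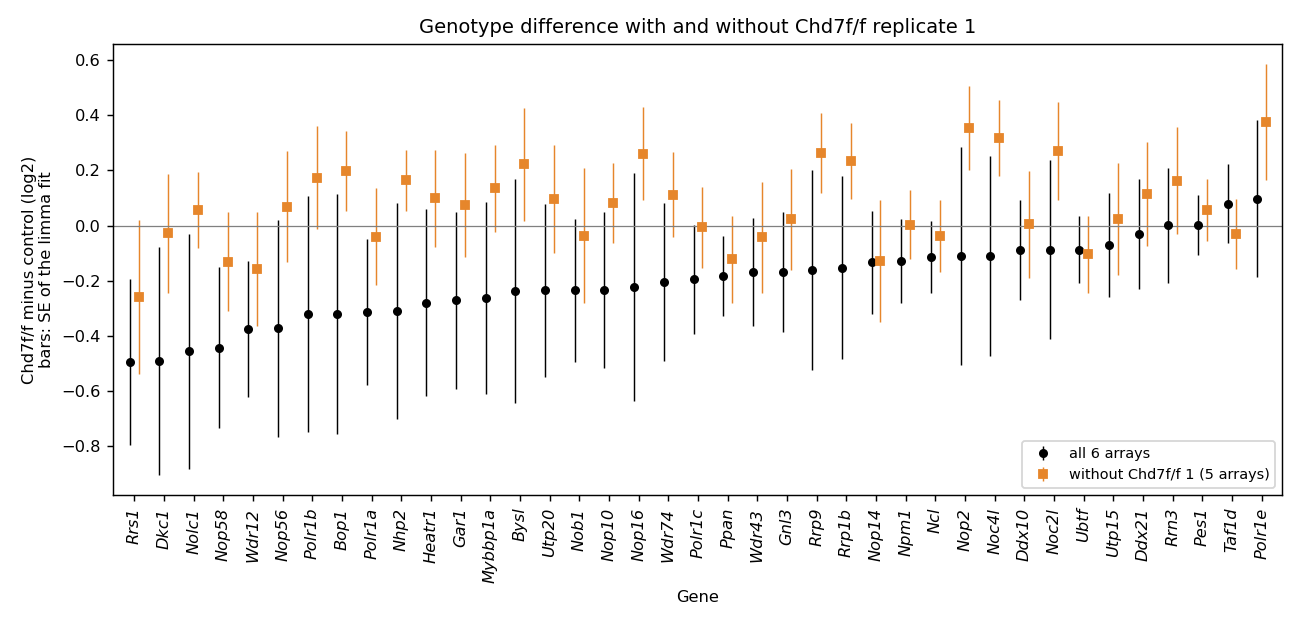
Chd7f/f minus control on the log2 scale (vertical axis) for each member (horizontal axis, ordered by the value over all arrays), with all 6 arrays (black circles) and without Chd7f/f 1 (orange squares); bars are the SE of the limma fit. With all arrays 35 of 39 points lie below 0, and without Chd7f/f 1 13 do.

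Many snoRNAs are cut from introns of genes of this set. Whether the snoRNA levels below come from the host transcripts was not tested. RefSeq (GRCm38.p6) places 26 snoRNA genes inside 8 of the members, Dkc1, Gnl3, Ncl, Nop56, Nop58, Ppan, Taf1d and Wdr43; its table gives no strand for them. Of these, 9 had a probe set annotated to them alone. Lowest on Chd7f/f replicate 1 were 3 of the 9, near the share of 27.7% over all tested genes. Snord110, inside Nop56, was at 12.00, 12.18 and 12.09 in the control and at 12.28, 12.13 and 12.15 in Chd7f/f. It was highest on the array where the Nop56 probe set used here was lowest. The other probe sets of Nop56 were lowest on control replicate 1, at 7.55 and 6.03, against 7.63 and 6.12 on Chd7f/f replicate 1. Snord82, inside Ncl, was also highest on Chd7f/f replicate 1, at 11.89 against 11.57 to 11.83 elsewhere. Within Nop58 the 2 snoRNAs differed from each other. Snord11 was at 9.78 on Chd7f/f replicate 1 and between 10.11 and 10.63 elsewhere, while Snord70 was at 9.87 there and between 9.22 and 9.73 elsewhere. Snord69, inside Gnl3, was between 10.57 and 10.72 on all 6 arrays. Between genotypes the 9 differed by -0.18 to 0.20, with an adjusted p of 0.9998 for each (limma).

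**Figure D4:**
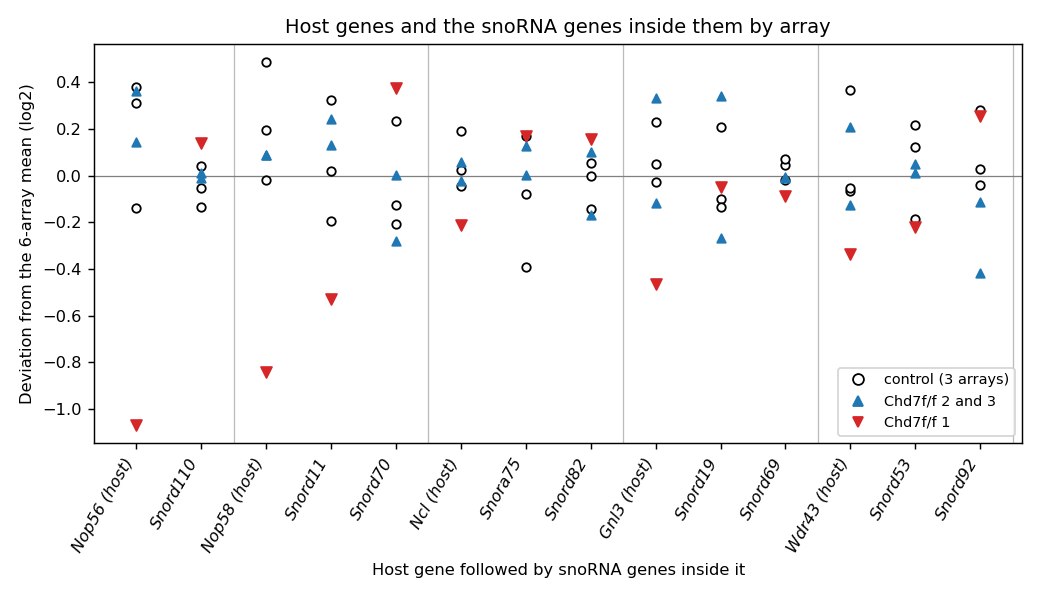
Deviation from the 6-array mean (vertical axis, log2) of 5 host genes, each followed by the snoRNA genes inside it that have a probe set (horizontal axis), on the control arrays (open circles), Chd7f/f 2 and 3 (blue triangles) and Chd7f/f 1 (red triangles pointing down). In the probe sets plotted, Chd7f/f 1 is the lowest point for each of the 5 hosts and for 3 of the 9 snoRNAs. Of all tested genes 27.7% were lowest on that array. The other Nop56 probe sets, not plotted, were lowest on control 1.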

How the data were processed

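The authors deposited RMA summaries as log2 values, 1 for each probe set on each array. The submitters' processing notes name Affymetrix Expression Console and RMA, without versions here. RMA equalises arrays, so differences in total signal between them are no longer visible. The table held 41345 probe sets on 6 arrays. A human array is named in the labels' labelling protocol, but the probe sets carry mouse genes, as the design text says.

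Of these, 23521 probe sets had 1 gene symbol in the platform annotation, 1814 several and 16010 none listed. Symbols were updated by Entrez identifier in RefSeq (GRCm38.p6) for 21994 of 22180 genes, and the probe set with the highest mean was kept for each gene. Genes whose mean reached the 30th percentile of all named genes (4.13) entered limma 3.58.1 (lmFit, eBayes, no covariate, R 4.3.3), with Benjamini-Hochberg adjustment over 15526 genes. In data simulated for this comparison over 15526 genes, limma recovered 38.8% of genes raised by 1 log2, 82.4% of those raised by 2, 91.6% of those raised by 3 and 77.2% of those with a change of -2. The simulated noise was independent between genes and arrays, without an array that stood apart as Chd7f/f replicate 1 did. These rates therefore do not give the power for the members.

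Members and lists were chosen with earlier results of these data known. All members were named, with Kit, Chd7, Myc, Mycn, Max, Mki67, Mcm2 and Pcna whatever their values, the 4 other biogenesis genes with the smallest p, the 4 snoRNAs with the highest mean and, after its values were seen, Snord70. Ccnb1, also listed for naming, had no probe set of its own. The distance of 0.5 was chosen after the data were seen. Marker lists of macrophages, neutrophils and megakaryocytes had mean levels of 5.92 to 7.12, 3.96 to 5.11 and 5.85 to 6.91 over the arrays. Alternatives were another normalization, centring, other filters, the mean of probe sets, a trended prior, weights for arrays, a block on replicate numbers, and leaving out each array. Plots were drawn with matplotlib 3.10.9.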

Additional observations from a re-analysis of the deposited data

How the results depend on the processing

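No member or other gene passed an adjusted p of 0.05 under any alternative run (limma). Genes at an unadjusted p under 0.05 numbered 286, and 530 with no filter, 159 with a filter at the 50th percentile, 571 with array weights and from 270 to 477 when 1 array was left out, the highest without control replicate 2. Members at an unadjusted p under 0.05 numbered 0 to 1 over the same fits, the 1 being Rrs1 without Chd7f/f replicate 2. In that fit 295 of all tested genes were under 0.05. Members lower in Chd7f/f numbered 35, and from 13 to 38 when 1 array was left out, with 13 without Chd7f/f replicate 1. When 1 array was left out their median difference ran from -0.41 to 0.068, against -0.039 to -0.0016 over all tested genes. The count of members lower in Chd7f/f was 34 with arrays centred on their median and 35 under the other scalings. That 36 members were lowest on Chd7f/f replicate 1 became 32 under each of 2 other scalings and 37 with the mean of probe sets. Leaving out 1 array at a time turned the sign of these differences: Polr1b from -0.64 to 0.17, Polr1e from -0.084 to 0.37, Rrn3 from -0.18 to 0.16, Taf1d from -0.030 to 0.17, Nop56 from -0.65 to 0.068 and Rrp9 from -0.45 to 0.26. Over the same fits the differences were Nhp2 from -0.55 to 0.16, Nop10 from -0.40 to 0.082, Gar1 from -0.56 to 0.074, Npm1 from -0.20 to 0.0034, Nolc1 from -0.78 to 0.055 and Gnl3 from -0.38 to 0.023. Others spanned Mybbp1a from -0.52 to 0.13, Ddx21 from -0.23 to 0.12, Nop14 from -0.23 to 0.059, Utp20 from -0.50 to 0.097, Utp15 from -0.24 to 0.026 and Heatr1 from -0.54 to 0.099. Likewise the ranges were Bysl from -0.49 to 0.22, Noc4l from -0.37 to 0.32, Ddx10 from -0.23 to 0.018, Bop1 from -0.64 to 0.20, Pes1 from -0.028 to 0.056 and Wdr74 from -0.45 to 0.11. Further ranges were Nop2 from -0.44 to 0.35, Nop16 from -0.52 to 0.26, Noc2l from -0.27 to 0.27, Rrp1b from -0.41 to 0.23, Kit from -0.041 to 0.36 and Chd7 from -0.89 to 0.22. The last were Myc from -0.54 to 0.21, Mycn from -0.099 to 0.13, Mki67 from -0.67 to 0.13, Mcm2 from -0.87 to 0.053 and Pcna from -0.31 to 0.070. With array weights Rrp9 was at 0.037, Nhp2 at 0.013, Npm1 at 0.0037, Ddx21 at 0.016, Noc4l at 0.17, Nop2 at 0.11, Noc2l at 0.091, Rrp1b at 0.052 and Mycn at 0.046. Centring gave Ddx21 at 0.017 and Mycn at 0.038, another quantile normalization Mycn at 0.029, and the mean of probe sets Taf1d at -0.13 and Ddx21 at 0.012. The cause of these changes of sign was not tested. With the replicate number as a block, 0 members passed an adjusted or unadjusted p of 0.05, and 332 genes passed an unadjusted one. Same-numbered arrays shared deviations with correlations of 0.027, -0.025 and 0.034 across genes, so the numbers were not taken as pairs. With 3 arrays a genotype, a member had to differ by several times its SE to be called, and detection calls per probe set were not analysed here.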
